A study of Mus musculus with 34 samples.

Results

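Voltage-gated potassium channel subunits were read out in the brain of the newborn mouse. The list holds 36 genes, which were found on the array by the RefSeq accession of each probe. They carry 49 of the 55681 probes of the array, among 20141 genes that could be named. The mice were C57BL/6J males 3 days old, and each brain was sliced into fractions 500 μm thick that were measured once each on a single-colour Agilent array. The coronal series has 15 fractions of 1 mouse, the horizontal series 8 fractions of another, and the sagittal series 11 fractions of the last, so that series and mouse cannot be told apart. Each of sagittal fractions 1 and 11 pools 2 cut fractions. The labels name no treatment, and all 3 mice share age, sex and strain.

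A voltage-gated potassium channel is an assembly of subunits around a pore that opens when the membrane is depolarised. Potassium then leaves the cell, and the membrane returns to rest. The subfamilies differ in how fast they open and inactivate, and so they set the threshold, the shape and the repetition rate of action potentials. Shaker (Kcna), Shab (Kcnb), Shaw (Kcnc) and Shal (Kcnd) subunits form channels within their own subfamily. The Kcnf, Kcng, Kcns and Kcnv subunits form no working channel alone and modify Shab channels. Ether-a-go-go (Kcnh) and Kcnq subunits form further subfamilies, the latter including the muscarine-sensitive M current.

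The sequences just upstream of the starts of subunits called on both the coronal and the sagittal axis are given first. Shared control of these genes was not tested. Kcnc4, Kcnd2, Kcnh2 and Kcnh8 were higher at the low-numbered coronal end and in medial sagittal fractions, and Kcnf1 was higher at the opposite coronal end and in lateral sagittal fractions. The remaining genes with these patterns, Kcns2, Kcng1, Kcnh3 and Kcnv1, are named only. The 150 bases before the RefSeq start are at chr3:107458899-107459048 on the minus strand for Kcnc4, chr6:21215196-21215345 on the plus strand for Kcnd2, chr5:24329592-24329741 on the minus strand for Kcnh2, chr17:52602559-52602708 on the plus strand for Kcnh8 and chr12:17176889-17177038 on the minus strand for Kcnf1, all in GRCm38.p6. They are printed 5′ to 3′ on the strand of the gene, with GC boxes (GGGCGG, or CCGCCC on the other strand) in capitals.
Kcnc4: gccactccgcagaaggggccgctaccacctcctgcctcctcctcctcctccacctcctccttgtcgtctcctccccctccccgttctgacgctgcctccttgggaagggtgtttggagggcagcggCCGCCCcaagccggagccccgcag
Kcnd2: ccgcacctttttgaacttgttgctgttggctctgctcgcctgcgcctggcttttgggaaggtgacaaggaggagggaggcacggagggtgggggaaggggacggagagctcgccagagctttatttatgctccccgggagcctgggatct
Kcnh2: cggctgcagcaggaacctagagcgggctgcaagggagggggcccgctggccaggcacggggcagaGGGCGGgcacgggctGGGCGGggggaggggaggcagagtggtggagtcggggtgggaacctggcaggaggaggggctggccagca
Kcnh8: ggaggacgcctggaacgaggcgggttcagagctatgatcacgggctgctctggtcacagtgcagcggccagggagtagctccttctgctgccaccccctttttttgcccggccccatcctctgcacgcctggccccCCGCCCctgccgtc
Kcnf1: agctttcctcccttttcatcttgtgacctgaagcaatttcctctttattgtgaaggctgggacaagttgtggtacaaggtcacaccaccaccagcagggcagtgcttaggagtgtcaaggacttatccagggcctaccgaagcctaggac
A GC box is the motif bound by Sp factors. The printed Kcnc4 and Kcnh8 sequences held 1 GC box each, that of Kcnh2 held 2, and those of Kcnd2 and Kcnf1 held none of these letters. Of the 36 genes, 25 had entries in the RefSeq table, with 30 starts. A GC box lay in the 150 bases before 16 of the 30 starts, and in 28.6% of the 32851 starts in the table. The median number of CpG in these bases was 9 for the 30 starts and 4 for the table. Kcnc2, Kcnq5 and Kcns3 gave more than 1 start each, so the 30 starts are not independent. The part of base composition in the GC box share was not tested. GC box matches are a description of the letters and not of binding.

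Where the counting of fractions begins is not given in the labels, and so marker lists were used to see which tissue each end held. The hindbrain Hox genes Hoxb5, Hoxc4, Hoxa5 and Hoxb4 all had their highest value in coronal fraction 2. Their summed level, on the log2 scale, was 4.74 to 6.14 in fractions 1-3 and -2.57 to -1.06 in fractions 13-15. All 4 cortical genes (Tbr1, Neurod6, Fezf2, Emx1) peaked in fractions 13-15, where their summed level was 4.56 to 6.13 against 0.293 to 0.767 in fractions 1-3. All 4 olfactory bulb genes peaked in fraction 15. Low coronal numbers are therefore called caudal and high numbers rostral. In the sagittal series fraction 6 was taken as the middle. All 4 cortical and all 6 striatal genes peaked in the lateral fractions 1, 2, 10 and 11, and 3 of 4 thalamic genes in the medial fractions 5-7. Neuronal genes (Snap25, Syt1, Rbfox3, Tubb3) were well above background in all 34 fractions, with a summed level of 7.64 to 7.71 in coronal fractions 1-3 and 8.05 to 8.47 in fractions 13-15. In horizontal fractions 6-8 all 5 hypothalamic genes peaked.

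Values are log2 normalized signals, that is log2 of the processed spot signal minus the array's 75th percentile, so that 0 is the level of the 75th percentile probe. A value belongs to its probe, and levels are compared between fractions and not between genes. A gene was called when the adjusted p of limma, over all 34186 probes tested, was under 0.05. The test compares blocks of neighbouring fractions of 1 brain, and its p-values say nothing about other mice. In such tissue fractions fewer cells of a type and less RNA per cell cannot be told apart. The number of arrays limits the precision. Differences between mirror sagittal fractions (fractions whose numbers add up to 12) gave an SD per array, the mirror SD. It was 0.16 (median over the subunits, 0.048 to 0.611), against 0.145 over all probes tested. Since it is scaled to a single array, it is smaller than the root mean square difference within a pair.

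Of the 36 genes, 34 entered the tests and 29 were well above background in every fraction. Kcna10, a Shaker subunit, was well above background only in coronal fraction 5 (-3.94) and horizontal fraction 7 (-4.73). Kcnv2, a modifying subunit known from the retina, was so only in coronal fractions 1, 2 and 3, at -4.25, -4.40 and -4.74. Neither was tested. The SD over the 34 fractions was above the median of the probes tested (0.314) for 26 subunits. It was above their 90th percentile (0.723) for 6, Kcng1, Kcng2, Kcng4, Kcnh3, Kcnh6 and Kcnv1. Of these, Kcng4 and Kcnh6 were well above background in only 6 and 19 of the 34 fractions. Kcna10, which was almost never above background, had an SD of 0.863, so a high SD near background need not be regional. The SDs of the subunits thus ranged from under the median to above the 90th percentile of the probes tested.

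**Figure D1:**
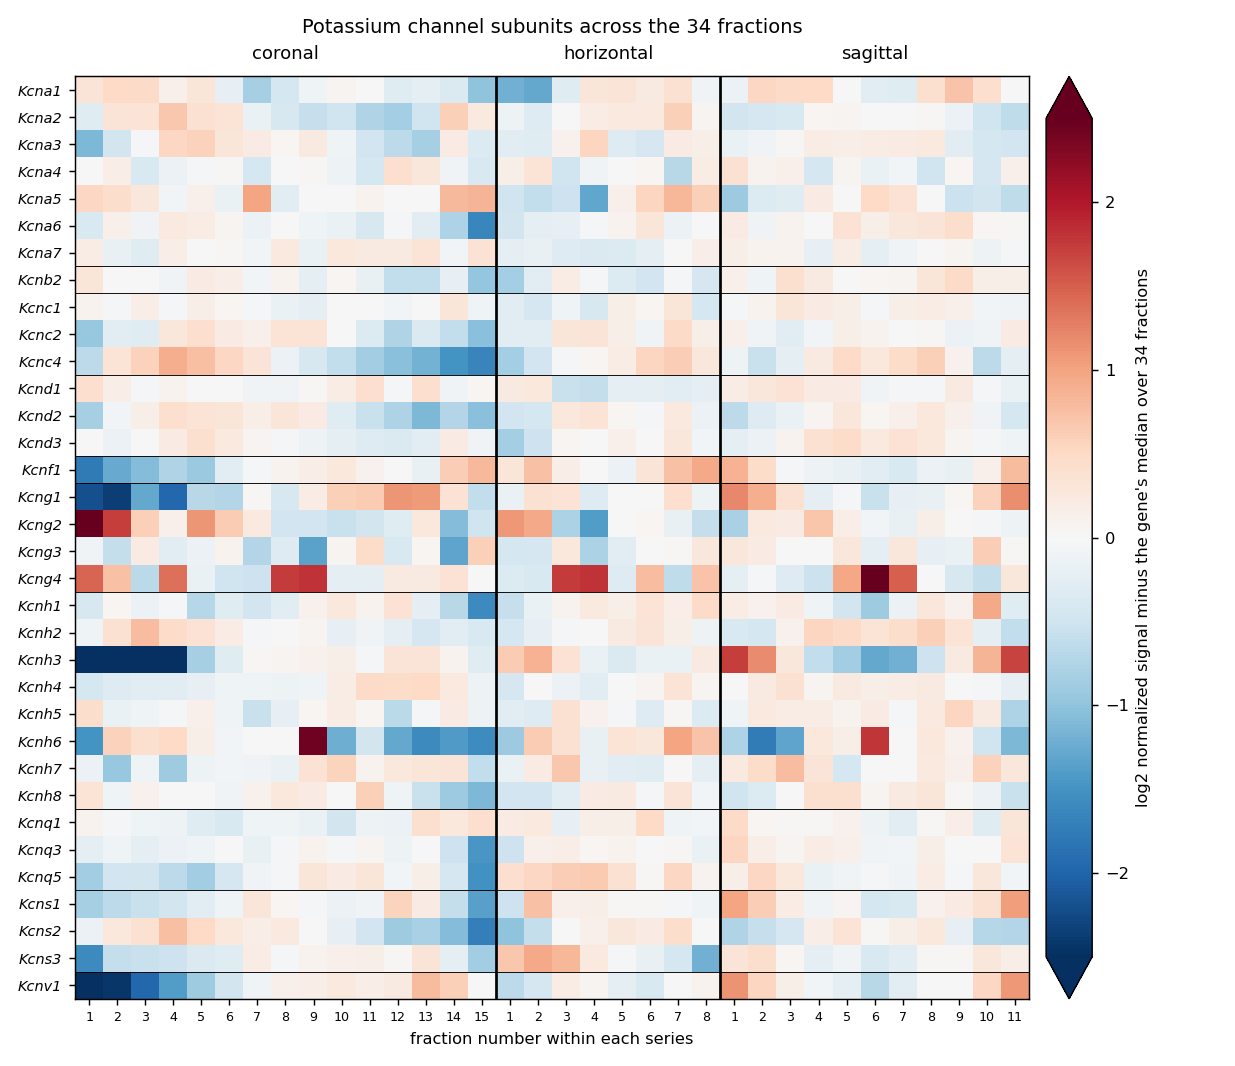
Each row is the probe of 1 of the 34 subunits tested and each column 1 of the 34 fractions, in 3 series. Colour is the log2 normalized signal minus the median of that row, limited at the ends of the scale. Kcnh3, Kcnv1, Kcng1 and Kcnf1 are blue in the lowest coronal numbers and red at both sides of the sagittal series, while Kcna4, Kcnc1 and Kcnd1 are pale throughout.

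Along the coronal series 19 of the 34 subunits differed between the 5 blocks of 3 fractions, where 40.0% of all probes were called. Between the ends, 8 subunits were higher in fractions 1-3 (9.14% of all probes) and 6 were higher in fractions 13-15 (15.0% of all probes). The median difference between the ends (fractions 1-3 minus 13-15) was 0.03 over the subunits and -0.10 over all probes. Fractions 1-8 lay on 1 slide and 9-15 mainly on another, so slide and coronal end cannot be told apart. With slide as a block 5 subunits remained called between blocks (Kcnh3, Kcnh6, Kcnh8, Kcnq1, Kcnv1) and 0 of the 14 between the ends. Values within the slide of fractions 1-8 are therefore given for the main genes. In the sagittal series 14 subunits differed between medial, intermediate and lateral fractions (9.83% of all probes). Of the subunits, 10 were higher medially (7.22% of all probes) and 6 laterally (9.42% of all probes). The 10 and the 14 include Kcng4, which was well above background on 1 sagittal array only, that of medial fraction 6. With normexp background correction the split was 8 and 8. All medial fractions (5-7) lay on 1 slide, and of the lateral fractions only fraction 2 did. Slide and distance from the middle can therefore hardly be told apart. With slide as a block, 0 were called medially and 1, Kcnh3, laterally (adjusted p = 0.0437). For the other subunits called between medial and lateral fractions the adjusted p was then 0.072 (Kcns3) to 0.464 (Kcna3). The summed level of the neuronal genes was 7.79 to 8.02 in the medial and 8.11 to 8.40 in the lateral fractions, and that of the cortical genes 4.20 to 4.71 and 5.28 to 5.90. All 3 erythroid genes were also highest laterally. The part of these cells in the sagittal differences was not tested. Without fraction 7 the medial count was 5 and without fraction 5 it was 6, and the count between sagittal blocks was 7, 8 and 9 without fractions 11, 7 and 1.

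Of the 6 subunits with the high SDs, Kcnh3, Kcnv1 and Kcng1 are described first, with Kcnf1. Kcnh3, an elk-type channel known from the forebrain, read -1.40, -0.77 and -0.41 in coronal fractions 1, 2 and 3. It read 3.30, 3.05 and 2.68 in fractions 13, 14 and 15. The ends did not overlap, and the rostral level was higher by 3.87 ± 0.43 (SE) on the log2 scale, or 14.6-fold (adjusted p = 0.000123). The step lay within 1 slide. Kcnh3 went from 0.48 in fraction 4 to 2.14 in fraction 5 and 3.03 in fraction 8, and stood at 3.08 in fraction 9 on the next slide. With slide as a block the adjusted p was 0.082 between the ends and 0.0169 between blocks. In the sagittal series Kcnh3 read 2.11, 1.69 and 1.77 in the medial fractions 5, 6 and 7. It read 4.70, 4.15, 3.82 and 4.67 in the lateral fractions 1, 2, 10 and 11. Both sides of the brain were higher than the middle, by 2.48 ± 0.28 or 5.57-fold (adjusted p = 0.00128). This call was kept under all 23 alternatives run. The mirror SD of Kcnh3 was 0.154.

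Kcnv1, a modifying subunit that silences or alters Shab channels, climbed along the same axis. It read -2.51, -2.12 and -1.66 in coronal fractions 1, 2 and 3 and 1.11, 0.91 and 0.30 in fractions 13, 14 and 15. The ends did not overlap and the rostral level was higher by 2.87 ± 0.27, or 7.31-fold (adjusted p = 3.87e-05). Within the slide of fractions 1-8 it went from -2.51 to 0.43, and fraction 9 on the next slide read 0.47. With slide as a block the adjusted p was 0.0526 between the ends and 0.0168 between blocks. Medial sagittal fractions 5, 6 and 7 read 0.07, -0.39 and 0.05, and lateral fractions 1, 2, 10 and 11 read 1.43, 0.85, 0.83 and 1.39. The lateral level was higher by 1.22 ± 0.18, or 2.32-fold (adjusted p = 0.00283), and the mirror SD was 0.048, the lowest of the subunits.

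Kcng1, another modifier of Shab channels, read -2.26, -2.42 and -1.35 in coronal fractions 1, 2 and 3. It was highest in fractions 12 and 13, at 1.04 and 0.99, and read 0.29 and -0.69 in fractions 14 and 15. The rostral end was higher by 2.21 ± 0.44, or 4.62-fold (adjusted p = 0.00442, and 0.317 with slide as a block). From fraction 1 to 8, on 1 slide, it went from -2.26 to -0.46, and fraction 9 read 0.11. Sagittal fractions 5, 6 and 7 read -0.12, -0.63 and -0.28, all under lateral fractions 1, 2, 10 and 11, which ran from 0.51 to 1.13 (2.35-fold higher laterally, adjusted p = 0.00437). Kcng1 has a second probe that was not tested. Kcng1 was thus highest before the olfactory end of the series.

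Kcnf1, also a modifying subunit, read -2.50, -2.00 and -1.81 in coronal fractions 1, 2 and 3, and -0.92, -0.12 and 0.08 in fractions 13, 14 and 15. The ends did not overlap (3.44-fold higher rostrally, adjusted p = 0.000632, and 0.173 with slide as a block). Within the slide of fractions 1-8 it went from -2.50 to -0.64, and fraction 9 read -0.57. Lateral sagittal fractions 1, 2, 10 and 11 read 0.14, -0.28, -0.61 and 0.06 against -0.91, -1.02 and -1.11 in fractions 5, 6 and 7 (1.79-fold, adjusted p = 0.00802). A second Kcnf1 probe was called in the same directions, by 1.90 rostrally (adjusted p = 0.00372) and by 0.97 laterally (adjusted p = 0.0352), and the probes had r = 0.692 over the 34 fractions. In the horizontal series Kcnf1 read 0.00 in fraction 2, -0.87 in fraction 5 and 0.21 in fraction 8 and was not called.

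**Figure D2:**
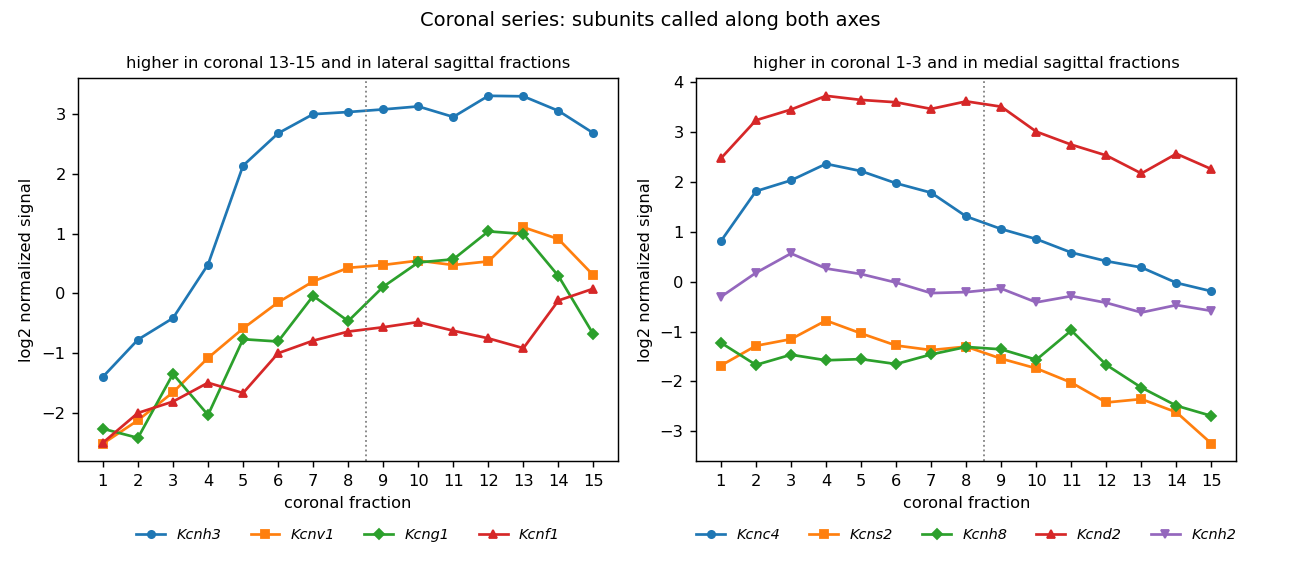
Log2 normalized signal by coronal fraction for the 4 subunits higher rostrally and laterally (left) and the 5 higher caudally and medially (right), 1 point per array. The dotted line is the change of slide between fractions 8 and 9. Kcnh3 reaches 3.03 by fraction 8, before the change of slide, and Kcnc4 declines from 2.36 in fraction 4 to -0.19 in fraction 15 on both sides of it.

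The other modifying subunits had patterns of their own. Kcns2, a partner of Shab channels, went the opposite way to Kcnv1. It read -1.68, -1.28 and -1.15 in coronal fractions 1, 2 and 3, peaked at -0.78 in fraction 4, and read -2.35, -2.62 and -3.24 in fractions 13, 14 and 15. The caudal end was 2.58-fold higher (adjusted p = 0.0022, and 0.24 with slide as a block) and the ends did not overlap. Medial sagittal fractions 5, 6 and 7 read -1.20, -1.50 and -1.40 against -2.30, -2.12, -2.24 and -2.27 in fractions 1, 2, 10 and 11 (1.83-fold higher medially, adjusted p = 0.00705). The call between sagittal blocks had an adjusted p of 0.0502 without fraction 11.

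Kcns1 and Kcns3, of the same group, were higher laterally. Kcns1 read -0.90, -1.27, -1.50 and -0.84 in sagittal fractions 1, 2, 10 and 11, and -1.82, -2.33 and -2.27 in fractions 5, 6 and 7 (2.01-fold, adjusted p = 0.0065). Kcns3 read -1.38, -1.25, -1.41 and -1.55 laterally against -1.78, -2.09 and -1.98 medially (1.47-fold, adjusted p = 0.00996). Its call between sagittal blocks was lost without fraction 1, 2, 6 or 7 (adjusted p 0.0591 to 0.0739). Neither differed between coronal ends, with adjusted p of 0.84 for Kcns1 and 0.121 for Kcns3. The 3 Kcns genes thus split by side of the sagittal axis, Kcns2 medially and Kcns1 and Kcns3 laterally.

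Kcng2, which is known from heart and modifies Shab channels, had its highest value in coronal fraction 1, at 0.41, and declined to -0.69 and -1.82 in fractions 2 and 3. Fractions 13, 14 and 15 read -2.16, -3.51 and -2.92. The caudal end was 4.48-fold higher (adjusted p = 0.00847, and 0.383 with slide as a block). Of the 5 cerebellar genes, 4 also had their highest coronal value in fractions 1-3, while Gabra6 was not well above background in any coronal fraction. Their summed level was 6.99 to 7.48 in fractions 1-3 and 4.66 to 5.64 in fractions 13-15. In the horizontal series Kcng2 was highest in fractions 1 and 2, at -1.33 and -1.47, against -3.81 to -2.37 in the others. There 4 of the 5 cerebellar genes peaked in fractions 4-5 instead. Their summed level was 6.175 to 6.247 in these fractions and 4.177 to 5.478 in horizontal fractions 1-3. The part of cerebellar tissue in the Kcng2 result was not tested. A second Kcng2 probe for the same accession did not follow: it lay between -3.77 and -2.75 in all coronal fractions, was not called at the ends (adjusted p = 0.513), and had r = -0.027 with the probe described. The caudal peak of Kcng2 thus rests on 1 of its 2 probes.

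Kcng3 and Kcng4 were near background. Kcng3 was not called in any test. Kcng4 was well above background in 6 of 34 fractions. In the sagittal series only fraction 6 was, at -4.13, between fractions 5 and 7 at -5.79 and -5.26. Kcng4 thus entered the sagittal tests through a medial fraction alone. The medial call (adjusted p = 0.00808) rests on values that were not well above background on the lateral arrays, -7.35 to -6.47, and no fold is given.

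Among the 8 ether-a-go-go subunits, 5 differed between coronal blocks (40.0% of all probes) and 3 between sagittal blocks (9.83% of all probes). The erg-type gene Kcnh2, whose channel carries the repolarising current of the heart and is also found in neurons, peaked in coronal fraction 3 at 0.56, beside -0.30 and 0.18 in fractions 1 and 2. Fractions 13, 14 and 15 read -0.62, -0.47 and -0.59 (1.63-fold higher caudally, adjusted p = 0.0129, and 0.295 with slide as a block). Kcnh2 was higher in the medial sagittal fractions 5, 6 and 7, at 0.28, 0.13 and 0.25, than in fractions 1, 2, 10 and 11, at -0.58, -0.64, -0.45 and -0.82 (1.79-fold, adjusted p = 0.00349). Neither pair of ends overlapped.

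The other erg-type genes were dim. Kcnh6 was called between coronal blocks (adjusted p = 0.0495), a call lost in 11 of 15 fits without 1 fraction (adjusted p 0.0588 to 0.0952). It read -4.67 to -4.02 in fractions 2-8, reached -2.17 in fraction 9, and lay between -6.20 and -5.05 in fractions 10-15, with -6.09 in fraction 1. It was not well above background in fractions 1, 5, 6 and 10-15. Medially it was well above background on all 3 sagittal arrays, at -4.46, -2.82 and -4.62, and laterally on none (adjusted p = 0.0543, not called). With lateral values raised to the lowest well-above-background level of their arrays, the means differed 1.92-fold. That figure leaves out the spread of the arrays and is no lower limit. A second Kcnh6 probe, well above background in 7 of 34 fractions, was called between coronal blocks (adjusted p = 0.0163) with its peak in fraction 7. It was not called between medial and lateral fractions (adjusted p = 0.526), and the probes had r = 0.409. The peak in fraction 9 and the medial values thus rest on 1 of 2 probes. Kcnh7 was not called in any test.

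The elk-type genes differed from each other. Kcnh8 ran opposite to Kcnh3. It was level from -1.67 to -0.98 in coronal fractions 1-12 and then read -2.12, -2.48 and -2.69 in fractions 13, 14 and 15 (1.97-fold higher in fractions 1-3, adjusted p = 0.00372, and 0.212 with slide as a block). The drop lies within the slide of fractions 9-11 and 13-15. Sagittal fractions 5, 6 and 7 read -1.16, -1.49 and -1.34 against -2.07, -1.92, -1.71 and -2.12 laterally (1.54-fold, adjusted p = 0.0166, and 0.0605 and 0.0532 without fractions 5 and 7). Between sagittal blocks Kcnh8 was lost without fraction 1, 2, 7 or 11 (adjusted p 0.0533 to 0.0809). Its second probe was called in the same directions (adjusted p = 0.00471 at the coronal ends and 0.0192 medially), with r = 0.871.

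Kcnh4, the remaining elk-type gene, was highest in coronal fractions 11, 12 and 13, at 0.09, 0.08 and 0.10, against -0.82, -0.71 and -0.68 in fractions 1, 2 and 3. Fractions 14 and 15 read -0.14 and -0.51. The rostral end was 1.47-fold higher (adjusted p = 0.0157, 0.0735 with the array's median as the scale and 0.357 with slide as a block). All 6 striatal genes measured peaked in fractions 4-12, before the Kcnh4 maximum in fraction 13, with a summed level of 2.67 to 6.00 there and 3.02 to 4.81 in fractions 13-15. The part of striatal tissue in the Kcnh4 values was not tested. The eag-type genes Kcnh1 and Kcnh5 were not called in any test.

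Shaker subunits open at low voltage and often sit on axons. Of the 7 tested, 4 were called between coronal blocks (40.0% of all probes) and 2 between sagittal blocks (9.83% of all probes). Kcna1 read 0.52, 0.69 and 0.67 in coronal fractions 1, 2 and 3 and -0.02, -0.17 and -0.81 in fractions 13, 14 and 15, without overlap (1.95-fold higher caudally, adjusted p = 0.0103, and 0.118 with slide as a block). The call between coronal blocks was lost without fraction 2 or 3 (adjusted p = 0.0612 and 0.0518). In the sagittal series Kcna1 read 0.60 to 0.92 in fractions 2-4 and 8-10, 0.20, -0.06 and -0.10 in fractions 5, 6 and 7, and 0.06 and 0.18 in fractions 1 and 11 (adjusted p = 0.0501 between blocks, not called).

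Kcna2, a common partner of Kcna1 on axons, differed between coronal blocks without differing between the ends. It read -0.50 in fraction 4 and -2.02 in fraction 12, and returned to -0.58 and -0.94 in fractions 14 and 15 (adjusted p = 0.0188, and 0.0514 without fraction 11). Medially it was higher, with -1.10, -1.19 and -1.17 against -1.64, -1.61, -1.67 and -1.81 (1.44-fold, adjusted p = 0.0116). The call between sagittal blocks was lost without fraction 1, 5, 6, 7 or 11 (adjusted p 0.0536 to 0.0776). Kcna3, known from lymphocytes as well as from neurons, was also called between coronal blocks and not between the ends, but its profile differed. It was highest in fractions 4 and 5, at -1.55 and -1.50, and lowest in fraction 1, at -3.20, and in fraction 13, at -2.91. Its calls were lost in 10 of 15 coronal fits (blocks, adjusted p 0.067 to 0.121) and in 8 of 11 sagittal fits (medial higher, 1.40-fold, adjusted p 0.0505 to 0.106) without 1 fraction.

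Kcna5, a channel known from heart, was higher medially, with -2.16, -1.66 and -1.80 against -3.07, -2.50, -2.62 and -2.79 (1.83-fold, adjusted p = 0.0184, and 0.0746 and 0.0644 without fractions 6 and 7). The call between sagittal blocks was lost in 10 of 11 fits without 1 fraction (adjusted p 0.0506 to 0.133), and the second Kcna5 probe was not called. Kcna6 was called between coronal blocks, with 2.66 in fraction 15 as its lowest value and 4.54 in fraction 4 as its highest (adjusted p = 0.0458), a call lost in 13 of 15 fits without 1 fraction (adjusted p 0.0597 to 0.0884) and not made for its second probe. Kcna4 (1.37 to 2.25 over the coronal fractions) and Kcna7 (-1.59 to -0.94) were not called in any test by the probe that stands for the gene. A second Kcna7 probe was called between coronal blocks (adjusted p = 0.0398).

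Shaw subunits, which open and close fast and allow rapid firing, were represented by Kcnc1, Kcnc2 and Kcnc4. Kcnc4 read 0.81, 1.81 and 2.03 in coronal fractions 1, 2 and 3, peaked at 2.36 in fraction 4 and declined in each later fraction to 0.28, -0.03 and -0.19 in fractions 13, 14 and 15. The ends did not overlap (2.88-fold higher caudally, adjusted p = 0.00314, and 0.36 with slide as a block). The decline from fraction 4 to 1.30 in fraction 8 lay within 1 slide, and so did that from 1.05 in fraction 9 to -0.19 in fraction 15, fraction 12 aside. Medial sagittal fractions 5, 6 and 7 read 1.94, 1.72 and 1.92 against 1.33, 0.89, 0.80 and 1.24 laterally (1.73-fold, adjusted p = 0.0217, and 0.0666 and 0.0712 without fractions 5 and 7). The call between sagittal blocks was lost in 9 of 11 fits without 1 fraction (adjusted p 0.0583 to 0.108).

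Kcnc2 was highest in the middle of the coronal series, between -0.83 and -0.54 in fractions 4-9. It was lower at both ends, at -1.91, -1.25 and -1.27 in fractions 1, 2 and 3 and -1.33, -1.58 and -2.01 in fractions 13, 14 and 15 (adjusted p = 0.0105 between blocks and 0.637 between the ends, and 0.0587 between blocks with slide as a block). Kcnc1 depended on the probe. The probe that stands for the gene lay between 1.29 and 1.82 in all coronal fractions (adjusted p = 0.992 between the ends). A second probe of the same accession was higher caudally, at 1.31, 1.08 and 0.91 against 0.25, 0.64 and 0.36, by 0.68 ± 0.16 (adjusted p = 0.00946). It was also higher medially, by 0.321 ± 0.098, with an adjusted p just under the threshold (0.04985). The third, for another RefSeq transcript of Kcnc1, read -0.01, 0.30 and 0.40 in fractions 1, 2 and 3 against -1.33, -1.25 and -1.32 in fractions 13, 14 and 15, without overlap. It was higher caudally by 1.53 ± 0.19 (adjusted p = 0.00028) and medially by 1.04 ± 0.16 (adjusted p = 0.00357). Like Kcnc4 this probe was higher caudally and medially, and the probe that stands for Kcnc1 was called in neither direction.

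**Figure D3:**
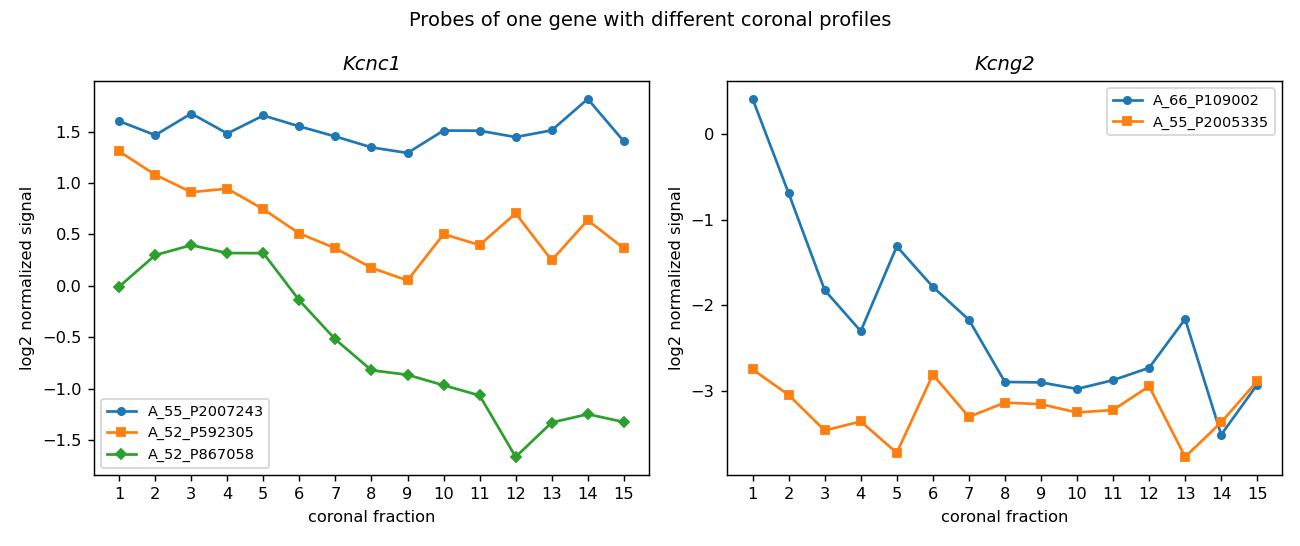
Log2 normalized signal by coronal fraction for the 3 probes of Kcnc1 (left) and the 2 probes of Kcng2 (right), 1 point per array. Heights of different probes are not comparable, only their shapes. A_52_P867058 of Kcnc1 falls from 0.40 in fraction 3 to -1.66 in fraction 12 while A_55_P2007243 stays between 1.29 and 1.82, and the peak of Kcng2 at 0.41 in fraction 1 is in 1 probe.

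Shab was represented by Kcnb2, a delayed rectifier and a partner of the modifying subunits. It read -0.88, -1.18 and -1.18 in coronal fractions 1, 2 and 3 and -1.81, -1.38 and -2.15 in fractions 13, 14 and 15 (1.62-fold higher caudally, adjusted p = 0.0278, and 0.532 with slide as a block). The call was lost without fraction 1, 2, 3, 13 or 15 (adjusted p 0.0516 to 0.092), and Kcnb2 did not differ between medial and lateral fractions (adjusted p = 0.787).

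Shal subunits carry the fast transient current of dendrites. Kcnd2 read 2.47, 3.23 and 3.44 in coronal fractions 1, 2 and 3, peaked at 3.72 in fraction 4, and read 2.17, 2.56 and 2.25 in fractions 13, 14 and 15. The ends overlapped, since fraction 1 lay below fraction 14. The caudal end was 1.65-fold higher (adjusted p = 0.03), lost without fraction 2, 3, 13 or 15 (adjusted p 0.0702 to 0.116), with the array's median as the scale (0.0585) and with slide as a block (0.424). Medial fractions 5, 6 and 7 read 3.58, 3.34 and 3.42 against 2.65, 2.98, 3.20 and 2.85 laterally (1.44-fold, adjusted p = 0.0331, lost without fraction 1, 5, 6, 7 or 11 with adjusted p 0.0659 to 0.102).

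Kcnd3 followed Kcnd2 in the sagittal series only, with 3.91, 3.70 and 3.80 against 3.19, 3.31, 3.42 and 3.35 (1.40-fold, adjusted p = 0.0116). Its call between sagittal blocks was lost without fraction 1, 2, 5, 7 or 11 (adjusted p 0.0597 to 0.0716). Along the coronal series it was highest in fraction 5, at 3.85, lowest in fraction 12, at 3.09, and back at 3.66 in fraction 14 (adjusted p = 0.0253 between blocks, lost without fraction 5, 6, 11 or 12 with adjusted p 0.056 to 0.0917). Its second probe, for another transcript, was not called. Kcnd1 was not called in any test and lay between -0.16 and 0.35 in the coronal series.

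Of the Kcnq subunits, Kcnq1, a heart and inner ear channel, was called between coronal blocks (adjusted p = 0.00536, and 0.0476 with slide as a block). It read -2.66, -2.77 and -2.85 in fractions 1, 2 and 3, -3.20 to -2.88 in fractions 10-12 and -2.35, -2.48 and -2.33 in fractions 13, 14 and 15 (1.30-fold higher rostrally, adjusted p = 0.0308, lost without fraction 2, 3, 13 or 15 with adjusted p 0.0687 to 0.101). Kcnq3 and Kcnq5, which carry M current, were not called in any test. Both were lowest in coronal fraction 15, at -2.56 and -2.87.

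Of the 34 subunits tested, 11 (32.4%) had their lowest coronal value in fraction 15, as did 13.0% of all probes tested, the subunits including Kcna1, Kcnc4, Kcnh8, Kcnq3 and Kcns2. The 75th percentile used for scaling was lowest on that array (8.07 on the log2 scale). Of the 4 neuronal genes 1, Rbfox3, was lowest in fraction 15 and 1, Snap25, highest, and their summed level there was 8.05, above the 7.64 to 7.71 of fractions 1-3. In the same fraction 3 of 5 microglial, 2 of 4 oligodendrocyte-lineage, 1 of 4 vessel and all 3 erythroid genes were highest, with summed levels of 5.51, 6.62, 5.83 and 5.16. The part of these cells and of the array's scale in the low values was not tested.

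Along both axes, 4 of the 34 subunits were higher rostrally and laterally (Kcnf1, Kcng1, Kcnh3, Kcnv1), as were 4.46% of all probes. Another 5 were higher caudally and medially (Kcnc4, Kcnd2, Kcnh2, Kcnh8, Kcns2), as were 3.12% of all probes. The remaining calls between ends were on 1 axis. In either direction, 24.1% of all probes were called between coronal ends and 16.6% between medial and lateral fractions. Of the 9 modifying subunits tested, 5 were called between coronal ends and 7 between medial and lateral fractions, 5 of them laterally. The 7 include Kcng4, which was well above background on 1 sagittal array only. Of the 8 ether-a-go-go subunits 4 and 3 were called, of the 7 Shaker subunits 1 and 3 (all medially), of the 3 Shal subunits 1 and 2, of the 3 Shaw subunits 1 and 1, of the 3 Kcnq subunits 1 and 0, and Kcnb2 was called between coronal ends. Differences between subfamilies were not tested. In 10 subunits the probe that stands for the gene was not called in any test: Kcna4, Kcna7, Kcnc1, Kcnd1, Kcng3, Kcnh1, Kcnh5, Kcnh7, Kcnq3 and Kcnq5. Other probes of Kcnc1 and Kcna7 were called, as given above.

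**Figure D4:**
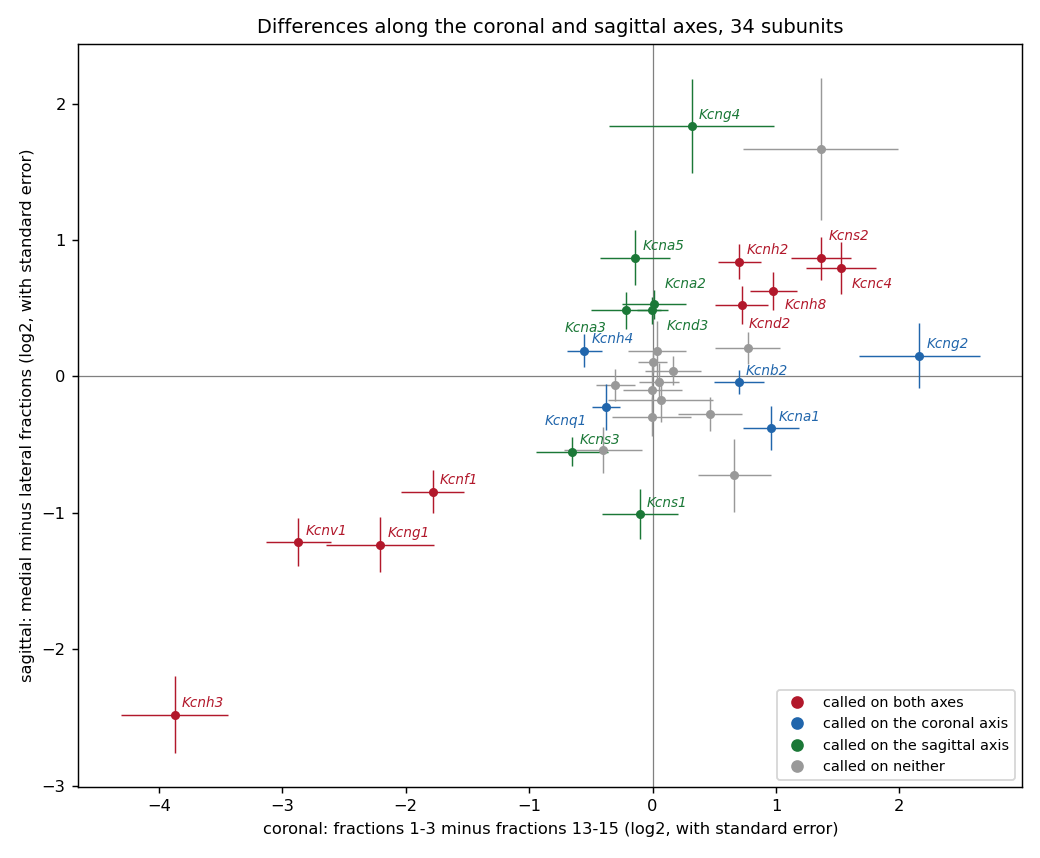
Each point is 1 of the 34 subunits. The horizontal axis is the log2 difference between coronal fractions 1-3 and 13-15 (positive is higher in 1-3), the vertical axis the log2 difference between medial and lateral sagittal fractions (positive is higher medially), and bars are standard errors. Kcnh3 stands at -3.87 and -2.48, and Kcnc4 at 1.53 and 0.79.

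**Figure D5:**
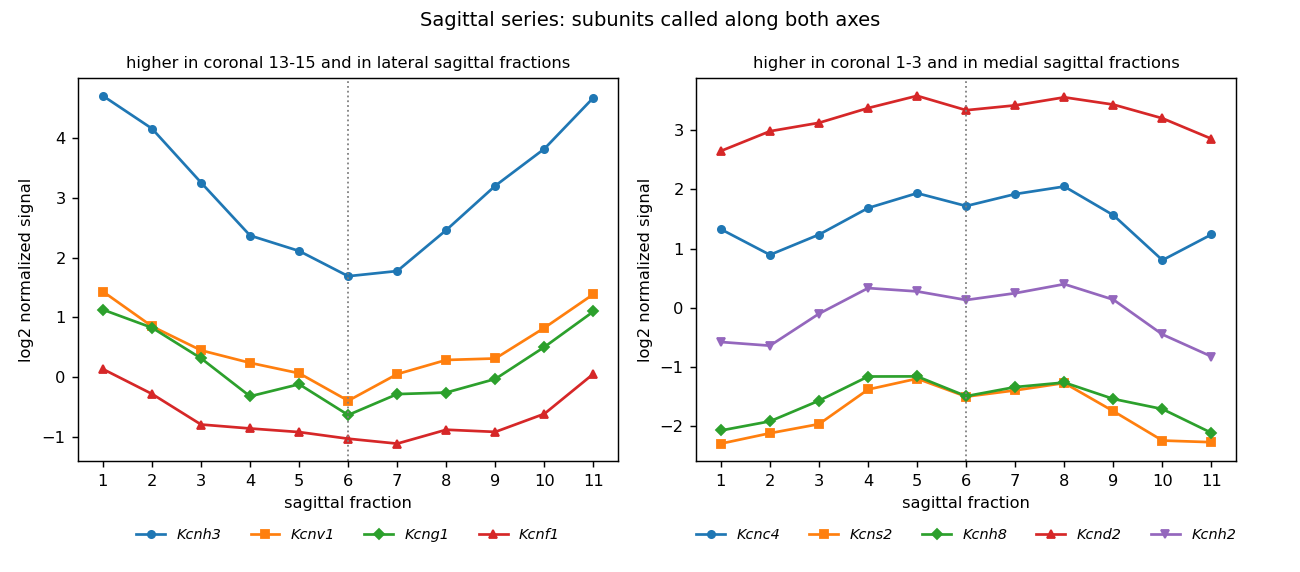
Log2 normalized signal by sagittal fraction for the same sets of 4 and 5 subunits, 1 point per array, with fraction 6 marked by a dotted line. The left set is lowest near the middle, where Kcnh3 reads 1.69 in fraction 6, and rises to both sides, where it reads 4.70 and 4.67. The right set is lower at both sides.

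In the horizontal series 0 of the 34 subunits were called by limma, neither between blocks (0.00585% of all probes) nor higher in fractions 1-3 (0.231%) or in fractions 6-8 (0.386%). An unadjusted p under 0.05 was found for 9 of the 34 subunits between the ends and 7 between blocks. Of all 34186 probes tested, 5774 and 5069 had such a p. The median difference was -0.23 over the subunits and 0.06 over all probes. Kcns3 read -1.03, -0.75 and -0.87 in fractions 1, 2 and 3, then -1.45 and -1.73, and -1.88, -2.14 and -2.91 in fractions 6, 7 and 8. It was lower in each fraction from 2 to 8, and the end blocks differed by 1.42 ± 0.26 without overlap (adjusted p = 0.0683, and 0.121 without fraction 1). Kcna1 went the other way, from -1.01, -1.08 and -0.11 in fractions 1, 2 and 3 to 0.43, 0.59 and 0.12 in fractions 6, 7 and 8 (adjusted p = 0.112, and 0.246 without fraction 1). Kcnc4 read 0.61, 0.98 and 1.40 against 1.99, 2.08 and 1.75 (adjusted p = 0.096). Kcnh3 read 3.61, 3.85 and 3.35 against 2.81, 2.81 and 3.20 (adjusted p = 0.145). Without fraction 3, Kcna1 was called (adjusted p = 0.0431), and Kcna5 was called without fraction 4 or 5, both higher in fractions 6-8. Without any other fraction no subunit was called between the ends.

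Of the auxiliary subunits, which bind the channel from the cytoplasm or within the membrane, 13 of 14 listed genes were tested, Kcne1 not. In the coronal series 8 differed between blocks, where 40.0% of all probes were called. Higher in fractions 1-3 were 4 (Kcnab1, Kcne1l, Kcnip1, Dpp6) and higher in fractions 13-15 was 1 (Kcnip2), against 9.14% and 15.0% of all probes. In the sagittal series 3 were higher medially (Kcnip1, Dpp6, Dpp10) and 1 laterally (Kcnab1), against 7.22% and 9.42% of all probes. Kcnip1, a calcium-binding partner of Shal channels, read 1.18, 1.52 and 1.30 in coronal fractions 1, 2 and 3 against 0.48, 0.52 and 0.56 in fractions 13, 14 and 15 (1.76-fold, adjusted p = 0.000732). Kcnip2, of the same family, read -1.81, -1.77 and -2.04 against -0.58, -0.26 and 0.16 (3.13-fold higher rostrally, adjusted p = 0.000105). Kcnip1 and Kcnip2 were thus higher at opposite ends. Kcnip3 and Kcnip4, of the same family, were not called between the ends (adjusted p = 0.829 and 0.0751). A second Kcnip4 probe was called, higher in fractions 1-3 (adjusted p = 0.00907). Slide and coronal end cannot be told apart here either, and no values with slide as a block are given for the auxiliary subunits. Kcne2, a membrane partner that is known from choroid plexus, was highest in coronal fraction 3, at 2.23, and at -6.93 in fraction 1. Of the choroid plexus genes Ttr, Folr1, Kl, Clic6 and Aqp1, 4 of 5 also peaked in coronal fraction 3, and their summed level spanned 0.742 to 8.46 in fractions 1-3. The part of choroid plexus in the Kcne2 values was not tested.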

How the data were processed

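RNA of 34 brain fractions was measured on single-colour Agilent SurePrint G3 Mouse GE arrays. The authors scanned the arrays with Agilent Feature Extraction 10.10.1.1 and deposited, for each array, spot intensity values: the processed signal, from which background had been taken off without scaling across arrays, and median signals with flags. They also deposited a table of log2 values, which matched the scaled values used here to within 0.02 for 99.92% of entries (array offsets within 0.0122). The medians of its columns were -2.443 to -2.244.

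Spots of a probe were averaged, put on the log2 scale and scaled to the 75th percentile of the array. A probe counted as detected if the well-above-background flag was set for most of its spots. Tests took in the 34186 of 55681 probes that every series detected at least once. Between 29598 and 37091 of 59305 spots per array were well above background, and none was saturated. Repeated spots had an SD of 0.069 to 0.123. The log2 75th percentile was 8.07 to 9.18.

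Probes were named through their accessions (26576 probes, all with 1 symbol). The probe that stands for a gene was well above background on most arrays, then had the highest median. All subunits could be named. Fraction values are given for subunits called between coronal blocks, with a high SD or with probes that disagree. Kcnb2, Kcns1 and Kcns3, which meet none of these, and horizontal values were added after their values were seen. The members and lists were chosen with earlier results of these data known. Differences between blocks were tested by lmFit and eBayes of limma (version 3.58.1, under R 4.3.3), with Benjamini-Hochberg adjustment and a threshold of 0.05, in a script checked on simulated data. Tables were made with Python 3.11.15, pandas 2.3.3 and numpy 2.4.6. Alternatives were other scaling, normexp background with an offset of 50 (on median signals), the authors' table, other filters, limma-trend, smooth models, slide as a block, leaving out slide 5, the mean of a gene's probes, and each fraction left out in turn. The fit within slide 4 was chosen after seeing the data. Of the cell type lists, genes without a matched probe were left out, and 1 cortical gene is not reported here. Promoter sequences are from RefSeq (GRCm38.p6), and the grid of the array names another build, so no probe coordinates are given.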

Additional observations from a re-analysis of the deposited data

Results flagged for a closer look

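In 68 sets of 5 values tested for a value far from the others, 3 stood apart, and chance alone flags about 1 set in 20. All 3 are differences between mirror sagittal fractions, higher number minus lower number. For Kcnb2, the Shab subunit, fraction 10 minus fraction 2 was 0.267, while the other 4 pairs lay between 0.025 and 0.076 (gap over range 0.791). For Kcnd2, the Shal subunit, fraction 7 minus fraction 5 was -0.16, while the others lay between 0.181 and 0.308 (0.729). For Kcng2, the modifying subunit, fraction 11 minus fraction 1 was 0.678, while the others lay between -0.538 and -0.187 (0.712).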

How the results depend on the processing

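No paired analysis was possible because the series were not compared with each other, and a fraction number is a position along a different axis in each. With slide as a block, 5 subunits (19 in the report) were called between coronal blocks, 0 (8) and 0 (6) at the coronal ends, 0 (14) between sagittal blocks, 0 (10) medially and 1 (6) laterally. Slide and coronal end cannot be told apart, and of the lateral sagittal arrays only fraction 2 lay on the slide of the medial arrays. Within slide 4, with fraction 2 the only lateral array and assumed to vary like the others, 0 were called between sagittal blocks, 0 medially and 2 laterally. Without slide 5 there were 7 between sagittal blocks and 6 medially, and with no detection filter 8 between sagittal blocks. In the horizontal series a spline called 4 between blocks. Normexp, limma-trend and a linear slope each called 1 higher in fractions 1-3 and 1 in 6-8, and the filter on every fraction called 1 in 1-3. Kcng4 reversed with normexp, at -0.052 medial minus lateral. The causes were not tested.

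Leaving out 1 fraction gave 14 to 23 calls between coronal blocks, 6 to 9 and 5 to 6 at the coronal ends, 0 to 0 between horizontal blocks, 0 to 0 in horizontal fractions 1-3 and 0 to 1 in 6-8, 7 to 14 between sagittal blocks, 5 to 10 medially and 6 to 7 laterally. Per subunit, these fits kept direction and side of the threshold in 2170 cases, and 112 lost and 30 gained a call. The other alternatives kept both in 2084 cases, 144 lost and 61 gained a call, and 1 reversed.

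Over all probes, slide as a block gave 2413 calls between coronal blocks (13672 in the report) and 229 at the ends (8246), 127 between sagittal blocks (3362) and 836 medially or laterally (5688). A spline gave 20704 between coronal blocks, a quadratic 9120 between sagittal blocks and a slope 9666. No filter gave 13687 at the coronal ends and 1599 and 2766 in the sagittal series, and without slide 5 there were 1930 between sagittal blocks. Within slide 4 the sagittal counts were 249 and 1005. Horizontal counts ran from 0 to 1071 between blocks (2) and 0 to 866 at the ends (211). With the array's median as the scale, the median sagittal difference moved from -0.05 to -0.17, with 1702 probes higher medially and 4398 laterally (2467 and 3221), and normexp gave 2010 and 5444 (for the subunits 8 and 8). Quantile scaling gave 3640 and 3447 at the coronal ends (3123 and 5123). Weak signal limits Kcna10, Kcng3, Kcng4, Kcnh6 and Kcnv2.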
